A study of Mus musculus with 9 samples.

Results

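The comparison described here is that of double KO lenses (*Mafg*-/-:*Mafk*-/-) with control lenses (*Mafg*+/-:*Mafk*+/-) of mouse embryos at E16.5, taken across genes beyond the 11 candidates that the study examined. Entries were kept if they carried a gene symbol and reached a value of 1 in 2 or more of these 6 libraries, which left 14122 of the 15820 entries with a symbol. Of these, 143 met the limit through double KO libraries alone and 73 through control libraries alone. Such a gene entered only because it was high in one group, and among the called genes these were *Myod1*, *Ptafr*, *Sohlh1* and *Tmem265* (4 through double KO) and *Plekhg3*, *Gm15564* and *Mafk* (3 through control).

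Whole-lens RNA was sequenced in 3 libraries per genotype, each made from 8 pooled lenses. Both alleles are germline knockouts, kept on an ICR background, so every cell of the embryo carries them and the control lenses themselves are heterozygous for both. Another group, compound KO lenses (*Mafg*-/-:*Mafk*+/-), is quoted only as values beside the other 2 and shares its control libraries with them. Values are the authors' normalized CPM, an entry's reads relative to all reads of its library after scaling for composition. The depth behind them is unknown, and the precision of a value is described by the spread over the 3 libraries of a group.

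Small Maf proteins are bZIP transcription factors that have a DNA-binding domain but no activation domain of their own. They bind Maf recognition and antioxidant response elements as partners of other bZIP proteins. With Nrf2 (*Nfe2l2*) they activate genes of glutathione synthesis and NADPH supply, and with Bach1 they repress genes of heme breakdown and iron storage until heme releases Bach1. The lens is a closed epithelial vesicle in which a front layer of epithelium gives rise to elongated fiber cells. Fiber cells fill up with crystallins and lose their organelles, and the tissue depends on glutathione to keep its proteins in solution.

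Each gene was compared on the scale of log2 of the value plus 1 with limma, over the 6 libraries. Calls needed an adjusted p no higher than 0.05 together with a 1.5-fold change or more. Fold changes below are on this log2 scale, which understates the change of a gene with low values. Of the 14122 genes, 51 were called (0.361% of all tested), 40 of them higher (0.283%) and 11 lower (0.0779%) in double KO lenses. Without the 11 candidates, 38 were higher and 7 lower, and the latter include *Mafg* and *Mafk* themselves. An unadjusted p of at most 0.05 with the same fold was reached by 225 genes upwards (1.59%) and 175 downwards (1.24%), or 281 and 141 with every library scaled to its total. The 3 libraries of one group all lay above those of the other for 2234 genes (15.8%), double KO above control for 1099 (7.78%) and below for 1135 (8.04%). With scaling to the library total the latter shares were 11.8% above and 4.07% below. The median log2 fold change of all genes was 0.01, and 0.07 with scaling to the library total.

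**Figure D1:**
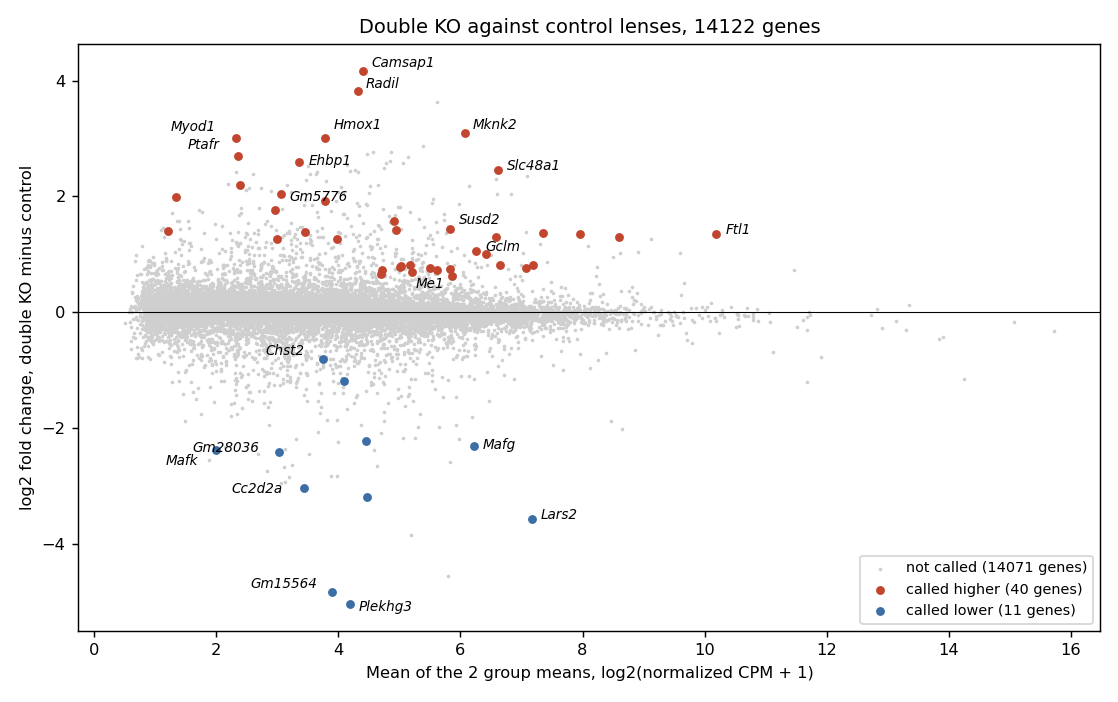
Change in double KO relative to control lenses (vertical axis, log2 fold change) against mean level (horizontal axis, log2 of normalized CPM plus 1), 1 dot per gene. The 40 genes called higher (red) include *Radil*, *Mknk2* and *Slc48a1* well above 2, while *Plekhg3* and *Gm15564* lie lowest among the 11 called lower (blue).

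Of the 51 called genes, 14 kept their call whichever of the 6 libraries was omitted, 12 kept it under no omission, and the rest under some. The 14 were *Slc48a1*, *Gclm*, *Gm10116*, *Mknk2*, *Radil*, *Ptafr*, *Myod1*, *Susd2*, *Gm5776* and *Gm22133* among those higher, and *Plekhg3*, *Gm15564*, *Lars2* and *Mafg* among those lower. One fit of all 9 libraries called 6 of these 14 and lost 8, namely *Gclm*, *Gm10116*, *Mknk2*, *Susd2*, *Gm22133*, *Plekhg3*, *Gm15564* and *Lars2*. All 51 kept their direction in these fits. The number called fell to 22 without control replicate 3, to 27 without double KO replicate 1 and to 33 without control replicate 1.

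The targeted genes were read first. *Mafg* (chromosome 11, 120515942 to 120524530 of GRCm39) was at 112.9, 120.7 and 134.5 in the control libraries and at 24.6, 21.2 and 26.2 in the double KO libraries. *Mafk* (chromosome 5, 139776804 to 139788408) was at 5.2, 6.3 and 5.6 against 0.6, 0 and 0.3. Both groups were apart for both genes, so the labels and the values went together. *Mafk* lost its call in 4 of the 6 fits without a library, at an adjusted p of up to 0.086 (limma). Part of the *Mafg* reads remained, which an entry for the whole gene does not place within it. *Maff*, the remaining small Maf gene, was at 3.6, 5.1 and 3.2 in control and at 5.1, 5.2 and 4.1 in double KO lenses, with overlap.

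The genes within 10 Mb of each target were counted. Near *Mafg*, 148 genes were tested and 0 were called by limma, with 2 past the unadjusted threshold. Near *Mafk*, 214 were tested, 5 passed the unadjusted threshold and 1, *Radil*, was called, at a distance of 2.68 Mb.

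The partners of the small Maf proteins gave 12 genes that could be tested from a list of 17, and the 2 called members were the targets. *Nfe2l2*, which encodes Nrf2, was at 29, 31.4 and 31.2 in control lenses and at 22.5, 25.7 and 21.3 in double KO lenses (log2 fold change −0.39, standard error 0.09). It was lower in all 3 libraries, below the 1.5-fold limit. *Bach1* was at 17.8, 15.8 and 17.5 against 18.9, 19.1 and 17.3, and *Keap1*, which marks Nrf2 for degradation, at 30.5, 36.6 and 37.4 against 37.6, 30 and 35.1. The groups overlapped for both.

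Genes that handle heme and iron were among those called. Of 12 genes that Bach1 is known to repress, 4 were called higher and 0 lower (0.283% and 0.0779% of all genes). Among these 4 was *Gclm*, a gene of glutathione synthesis that is counted again in the glutathione list below. All double KO libraries lay above all control libraries for 7 of the 12 (7.78% of all genes), and the median log2 fold change was 0.30 against 0.01 for all genes. This list was compiled with results of these data known, and *Hmox1*, the heme oxygenase that opens the heme ring, is one of the study's candidates. *Slc48a1* (chromosome 15, 97676401 to 97690573), which moves heme out of the lysosome into the cytosol, was at 30.5, 27.1 and 30.3 in control lenses and at 164.5, 166.5 and 163.1 in double KO lenses. The double KO values lay close together and far above the controls (log2 fold change 2.45, standard error 0.06, adjusted p = 0.000379, limma). Of the compound KO libraries, replicates 2 and 3 held 146.1 and 143.9, and replicate 1 held 62.2.

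*Ftl1* (chromosome 7, 45107367 to 45109308), the light chain of the iron store ferritin, was at 686.4, 678.4 and 608.4 in control lenses and at 1499, 1853.7 and 1685.9 in double KO lenses. It rose by 1.35 (standard error 0.09, adjusted p = 0.0093, limma), and the call was lost without control replicate 3 or double KO replicate 3, with an adjusted p of up to 0.0506. *Fth1*, the heavy chain, was at 361.2, 383.8 and 388.8 against 463, 497.9 and 497.9, without overlap. Its log2 fold change of 0.36 lay below the 1.5-fold limit. *Slc40a1*, the iron exporter ferroportin, and *Slc7a11*, the cystine importer, were apart in the same direction with log2 fold changes of 0.29 and 0.30. *Hebp1*, *Fech*, *Blvrb*, *Alas1* and *Nqo1* overlapped between the groups.

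**Figure D2:**
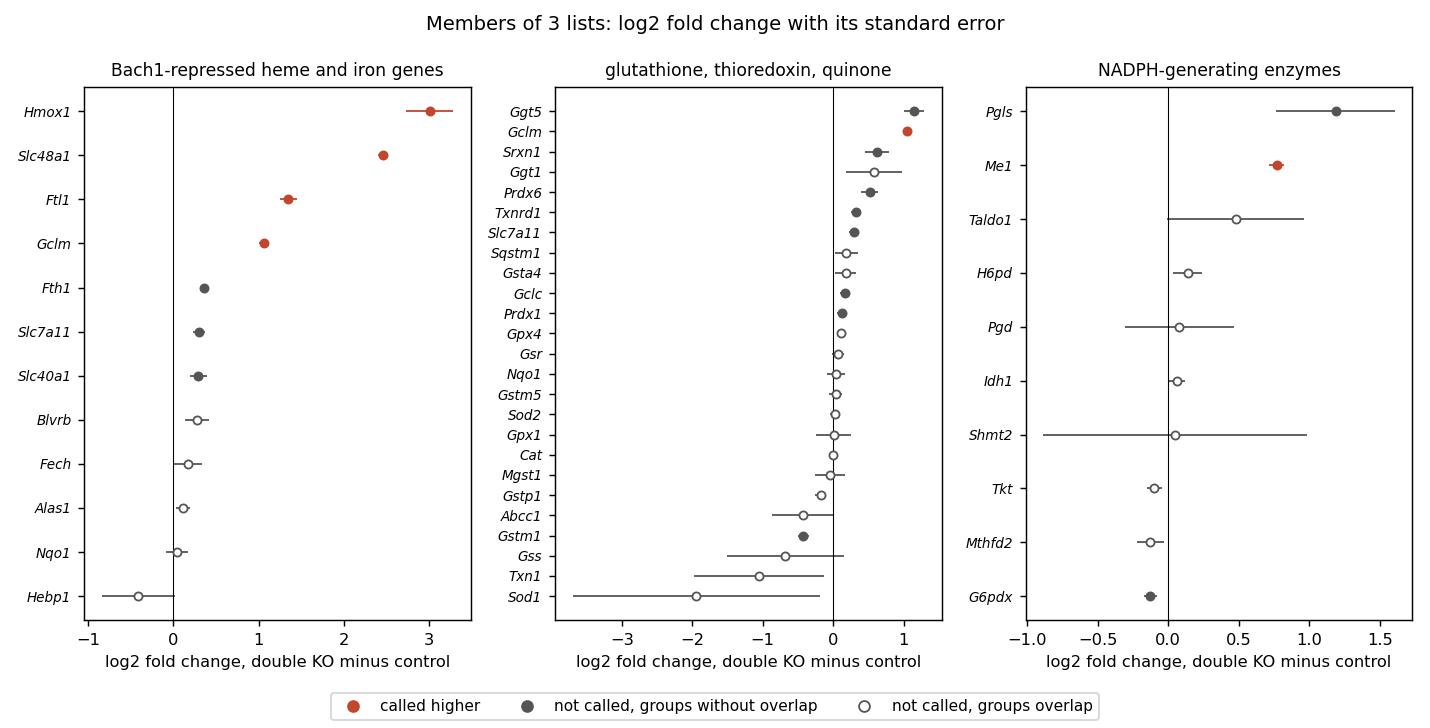
Log2 fold change of each tested member of 3 lists (horizontal axis, log2 units, double KO minus control), with bars for the standard error of the limma fit. Red dots are called genes, and filled dots are genes whose groups do not overlap. *Hmox1*, *Slc48a1*, *Ftl1* and *Gclm* lead the first list, and *Me1* is the called gene of the last.

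A further 4 called entries are copies of the ferritin light chain gene: *Gm10116* (*Ftl1-ps1* in GENCODE), *Ftl2* (*Ftl2-ps*), *Gm15590* and *Gm12164*. With a library left out, the adjusted p of *Ftl2*, *Gm15590* and *Gm12164* reached 0.0506, 0.061 and 0.066 by limma. *Gm5278*, another similar entry (92.1% identical to *Ftl1* over 342 aligned bases), was tested and not called. *Ftl1* and the 4 called copies rose by between 1.26 and 1.36. Added together, these 5 were at 1042, 1098.3 and 964.3 in control lenses and at 2416.7, 2765.4 and 2681.3 in double KO lenses. Reads of one copy can be counted for another, so these 5 calls are not 5 separate measurements and the values of the copies are uncertain. Among all stretches as long as a read, 26.9% of those in *Ftl1-ps1*, 45.6% of those in *Ftl2-ps*, 36.5% of those in *Gm15590* and 0% of those in *Gm12164* occur letter for letter in *Ftl1*. Of the *Gm12164* stretches, 17.5% occur in at least 1 of the other 4. To show how close the copies are, bases 445 to 504 of the *Ftl1* coding sequence are set beside the same 60 bases of each copy, from GENCODE transcripts, 5′ to 3′, with capitals where a copy differs from *Ftl1*.
Ftl1: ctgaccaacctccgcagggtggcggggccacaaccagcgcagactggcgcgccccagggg
Ftl1-ps1: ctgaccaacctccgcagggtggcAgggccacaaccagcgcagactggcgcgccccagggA
Ftl2-ps: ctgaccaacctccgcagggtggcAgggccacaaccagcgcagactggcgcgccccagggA
Gm15590: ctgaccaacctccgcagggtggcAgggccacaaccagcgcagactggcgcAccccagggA
Gm12164: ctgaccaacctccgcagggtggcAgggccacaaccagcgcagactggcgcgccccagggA
The copies differ from *Ftl1* at 2 or 3 of these 60 bases and from one another at 1 at most. This stretch was picked, among those aligned without gaps in which every copy differs from *Ftl1*, for having the most differences. It does not stand for the whole coding sequence.

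Outside the Bach1 list, genes of iron uptake, iron storage and heme handling held no call. Of 18 tested, 0 were called by limma in either direction, 1 passed the unadjusted threshold upwards and 1 downwards, and the median log2 fold change was 0.01. *Hfe*, which limits iron uptake through the transferrin receptor, was at 49.3, 19.6 and 48.7 in control lenses and at 150.5, 151.5 and 156.8 in double KO lenses (log2 fold change 2.05, adjusted p = 0.16, limma). Its groups were far apart, and control replicate 2 was the lowest library. *Mfsd7c*, a heme carrier, was at 1.7, 1.6 and 1.4 against 0.4, 0.7 and 0.6 (log2 fold change −0.72, adjusted p = 0.14, limma). It reached a value of 1 in no double KO library and so was tested only through control libraries. *Tfrc*, the transferrin receptor, overlapped between the groups at 58.8, 54.4 and 54.1 against 51.3, 57.5 and 51.3.

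Red cell genes also stood apart between the groups, and their values are given beside the heme genes. Of 19 erythroid genes listed, 10 could be tested, 0 were called by limma, 6 passed the unadjusted threshold upwards (1.59% of all genes), and 9 were apart with double KO above control (7.78% of all genes). Of the 10, 2 reached a value of 1 in no control library, and the 7 that reached it in all 6 libraries had a median log2 fold change of 1.05. Summed over the list, erythroid genes were at 1201 to 1658 in control lenses and at 2390 to 3992 in double KO lenses. *Hba-a2* was at 250.7, 316.2 and 397.5 against 531.3, 1135 and 720.7, and *Hbb-bs* at 482.6, 460.8 and 516.5 against 638, 1485.7 and 1033.7. *Hba-a1* overlapped between the groups, at 157.3, 353.9 and 453.5 against 806.4, 394.2 and 704.8. The regulators *Tal1* and *Epor* were below the limit for testing, and *Klf1* and *Gata1* had no entry under their symbols. The sum was highest in double KO replicate 2, where *Hba-a1* was lowest of the 3 double KO libraries. The part of red cell RNA in the heme results was not tested. In bulk RNA, a difference in how many cells of a type were present cannot be told apart from a difference in RNA per cell.

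Of 25 genes of glutathione, thioredoxin and quinone metabolism, 1 was called higher and 0 lower, 8 were apart upwards and 1 downwards (7.78% and 8.04% of all genes), and the median log2 fold change was 0.07. The called member was *Gclm* (chromosome 3, 122039126 to 122065061), the modifier subunit of glutamate cysteine ligase, the enzyme that limits glutathione synthesis. It was at 47.2, 49 and 50.3 in control lenses and at 98.2, 106.8 and 103 in double KO lenses (log2 fold change 1.06, standard error 0.05, adjusted p = 0.0023, limma). The compound KO libraries held 48.6, 65.4 and 88.1, the lowest of them at the control level. The catalytic subunit *Gclc* was at 28.5, 27.7 and 28.3 against 33.6, 30.2 and 31.4, apart but with a log2 fold change of 0.17. *Ggt5*, a gamma-glutamyl transferase, was at 0.2, 0 and 0 against 1.7, 1.3 and 1.1 (adjusted p = 0.064, limma). It reached a value of 1 in no control library and so was tested only through double KO libraries. *Ggt5* is 1 of the 8 apart upwards, and the filter largely set its separation.

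Other members with no overlap, chosen after their values were seen, were *Srxn1* (0.62), *Prdx6* (0.52) and *Txnrd1* (0.32), which reduce oxidized thiols and peroxides, each number being a log2 fold change without a call. *Gstm1*, a glutathione transferase, lay below the controls, at 125.1, 134.6 and 150.8 against 102, 97.1 and 105.1. *Nqo1*, a quinone reductase widely used to read Nrf2 activity, was at 2.5, 2.7 and 2.6 against 2.2, 2.9 and 3.1, with overlap.

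Of 10 enzymes that generate NADPH, 1 was called, *Me1* (chromosome 9, 86462646 to 86578104), the cytosolic malic enzyme. It was at 31.4, 32.5 and 33.4 in control lenses and at 54, 55.6 and 58.3 in double KO lenses (log2 fold change 0.77, standard error 0.05, adjusted p = 0.0093, limma). Without control replicate 3 its adjusted p was 0.0506. *Pgls*, of the pentose phosphate pathway, was at 36.2, 39.6 and 13.1 against 64.6, 67.9 and 54.6 (log2 fold change 1.19, adjusted p = 0.44, limma). *G6pdx*, the first enzyme of that pathway, was apart below the controls, at 37.8, 38.6 and 38.1 against 35, 35.4 and 34.2. *Pgd* and *Taldo1*, further enzymes of the pathway, overlapped between the groups.

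Since small Maf dimers read a known sequence, promoters of called genes were searched for its core. RefSeq windows, from 250 bases before to 50 after a start, were given for 35 of the 51 called genes. The antioxidant response core TGACNNNGC, on either strand, occurred in 6 of 26 windows of genes called higher (23.1%) and in 4 of 9 of genes called lower (44.4%). It occurred in 16.8% of the 10030 windows of genes tested and in 14% of all 27025 windows of this length. The shares are small counts and are given as a description. The sequence TGAGTCA occurred in 1 of the 26, that of *Me1*, where it overlaps the core, and in 4.15% of the windows of genes tested. No window was given for *Hmox1*, *Slc48a1* or *Myod1*.

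The matches that lie before or across the RefSeq start of genes called higher are shown with 10 bases on each side. They are read on the strand of the gene, with the 9 bases of the match in capitals. In *Gclm* the match is on the opposite strand and reads as its reverse complement. Sequences are from the RefSeq table (GRCm38.p6), and the positions are those of an exact match to GRCm39.
Gclm, chr3:122039062-122039090: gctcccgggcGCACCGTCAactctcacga
Me1, chr9:86577955-86577983: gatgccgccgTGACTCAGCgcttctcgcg
Frmd3, chr4:73931616-73931644: gggcctagccTGACGCAGCagcagccctg
Pgrmc1, chrX:35861644-35861672: tggccctggtTGACGGAGCggttgaggga
Radil, chr5:142536953-142536981: ctaatacatgTGACCCCGCccactcgagg
The first base of the match lies 134 bases before the RefSeq start in *Gclm*, 6 in *Me1*, 214 in *Frmd3*, 192 in *Pgrmc1* and 118 in *Radil*. RefSeq starts differ from the ends of the GENCODE genes. By the GENCODE positions, the matches of *Me1*, *Frmd3* and *Pgrmc1* lie within the gene, and those of *Gclm* and *Radil* outside it. *Gclm* and *Me1* are the 2 glutathione and NADPH genes described above. *Pgrmc1* encodes a heme-binding membrane protein, *Frmd3* a protein with a FERM domain, and *Radil* an adhesion regulator. The promoter of *Mafg* itself held a match 222 bases before its RefSeq start and that of *Mafk* 13 bases before. By the GENCODE positions, the match of *Mafk* lies within the gene and that of *Mafg* outside it.

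The genes with the largest rise outside heme handling form no single pathway. *Radil* (chromosome 5, 142469552 to 142536853), an effector of the GTPase Rap1 in cell adhesion and migration, was at 1.6, 1.5 and 1.8 in control lenses and at 34.5, 31 and 43.6 in double KO lenses (log2 fold change 3.81, standard error 0.15, adjusted p = 0.000934, limma). *Mknk2* (chromosome 10, 80501115 to 80513946), a kinase that phosphorylates the cap-binding translation factor, was at 11.5, 13.5 and 14.1 against 111.5, 111.6 and 136 (log2 fold change 3.10, standard error 0.11). Every double KO library of both genes lay far above every control library. In compound KO lenses *Mknk2* was at 95.8, 30.3 and 139.9, and *Radil* at 10.8, 6.3 and 31.2.

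*Ehbp1* (chromosome 11, 21955825 to 22292292), which links endocytosis to actin, was at 2, 1.3 and 2.5 in control lenses and at 17.8, 15.7 and 16.2 in double KO lenses (log2 fold change 2.60, standard error 0.18). Its adjusted p was 0.0088 and rose to 0.0522 without double KO replicate 1. *Ptafr* (chromosome 4, 132291363 to 132309994), the receptor for platelet-activating factor, was at 0.4, 0.3 and 0.4 against 8.1, 7.8 and 7.8 (log2 fold change 2.70, adjusted p = 0.000901, limma). The 3 double KO libraries lay close together. *Susd2*, a membrane protein with a sushi domain, was at 29.8, 28.6 and 31.1 against 76.5, 78.8 and 91.7 (log2 fold change 1.43, adjusted p = 0.0047, limma).

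*Klf9*, a transcription factor of the Krüppel-like family, was at 4.1, 5.1 and 4.7 in control lenses and at 22.9, 15.1 and 24.4 in double KO lenses (log2 fold change 1.93, adjusted p = 0.032, limma). *Wdr47*, a protein tied to microtubules, was at 3.1, 1.9 and 2.7 against 10.7, 10.3 and 12.2 (log2 fold change 1.77, adjusted p = 0.023, limma). *N4bp2* was at 12.5, 17.5 and 12.7 against 50.1, 40 and 42.3 (log2 fold change 1.58, adjusted p = 0.028, limma). The groups were apart for all 3, and each was called in 1 of the 6 fits without a library, with adjusted p-values of up to 0.145, 0.108 and 0.132.

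*Ccdc178*, on chromosome 18, was at 4.7, 5.5 and 5.1 against 14.2, 15.7 and 14.7 (log2 fold change 1.38), and its adjusted p was 0.0089, or 0.0506 without control replicate 3. *Gm5776* (chromosome 7, 54061906 to 54062226) is a processed pseudogene, 82.9% identical over 381 aligned bases to *Mrps33*, a mitochondrial ribosomal protein gene. It was at 2.3, 2.1 and 2.3 in control lenses and at 11.9, 13.2 and 12 in double KO lenses (log2 fold change 2.05). *Gm22133* and *Gm20746* have no position in GENCODE under these names. *Gm22133* was at 131.9, 143.8 and 137.9 against 343.3, 348.6 and 373.2 (log2 fold change 1.36), and *Gm20746* at 15.8, 17 and 14.1 against 45.6, 38.3 and 47.4 (log2 fold change 1.43, adjusted p of up to 0.080 with a library left out, limma).

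**Figure D3:**
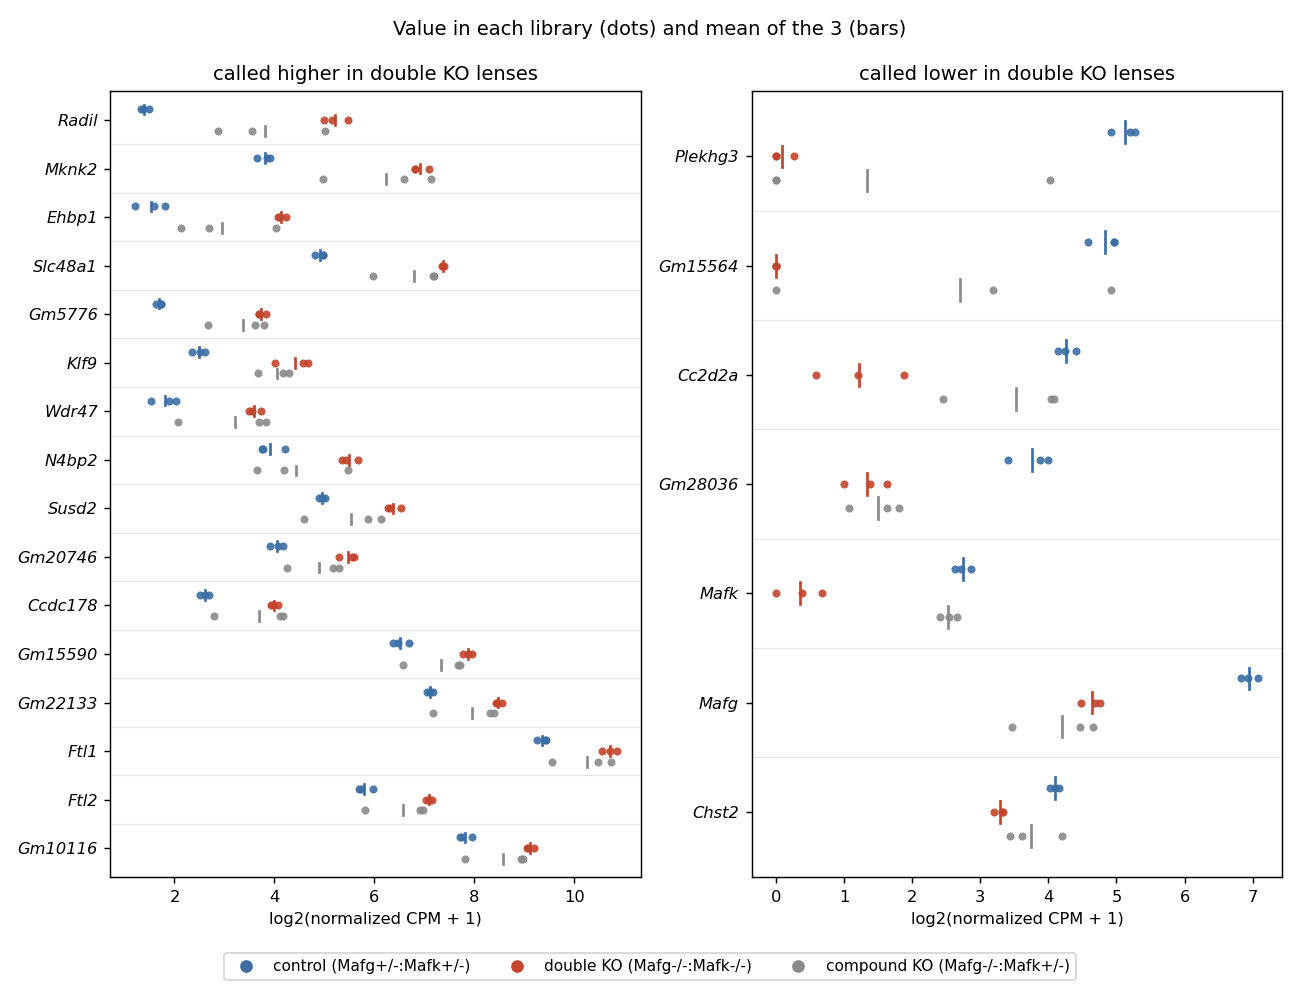
Value in each library (dots, log2 of normalized CPM plus 1, horizontal axis) of the 16 genes called higher with the largest change whose mean reached 10 in either group (left), and of the 7 genes called lower (right), candidates left out in both. Blue dots are control, red dots double KO and grey dots compound KO libraries, and bars are means of 3. Control and double KO dots are apart in every row, while compound KO dots are often spread between them.

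The other genes called higher changed less or had low values. Those with a role in stress responses were *Atf5* (1.01), a bZIP factor of the mitochondrial stress response, and *Sesn3* (0.82), a stress-induced regulator of the mTOR pathway. *Atf5* was at 52.7, 61.8 and 53.4 against 118, 105.1 and 118.1, and *Sesn3* at 96.7, 108 and 110.5 against 174.9, 186.7 and 196.6. *Atpif1* (0.63), an inhibitor of the mitochondrial ATP synthase, and *Pgrmc1* (0.82) were also higher. Each number in parentheses is a log2 fold change, here and in the next paragraph.

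Among genes of the nucleus, *Pola1* (0.81), a subunit of DNA polymerase alpha, *Srcap* (0.73), a chromatin remodeler, *Dgcr8* (0.74), a partner of Drosha in microRNA processing, and *Pygo2* (0.74), a cofactor of Wnt signaling, were called higher. Among genes of signaling and the cell surface, *Pcdh20* (2.20), *Mid2* (1.26), *Vstm4* (0.81), *Frmd3* (0.78), *Shb* (0.69) and *Galnt18* (0.66) were called, as was *Fam89a* (0.77). *Pcdh20*, a protocadherin, went from 1.4, 0.4 and 0.9 to 7, 8.2 and 7.5, and its adjusted p rose to 0.080 with a pseudocount of 0.1 and to 0.132 with a library left out. Without a library, the adjusted p reached 0.148 for *Srcap*, 0.165 for *Frmd3* and *Pgrmc1*, 0.104 for *Fam89a*, 0.094 for *Atf5* and 0.056 for *Vstm4*, by limma. *Sesn3*, *Atpif1*, *Pola1*, *Dgcr8*, *Pygo2*, *Mid2*, *Shb* and *Galnt18* were called in none of the 6 fits without a library, in which the adjusted p reached 0.165 at most. *Pola1* also lost its call with scaling to the library total.

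A pair of called genes sat beside another called gene. *Sohlh1*, a germ cell transcription factor, lies 79.5 kb from the candidate *Camsap1* on chromosome 2, was listed at 0 in all 3 control libraries and was at 2.8, 2.2 and 4.2 in double KO lenses (adjusted p = 0.026, limma). *Tmem265* begins 170 bp after the end of *Srcap* on chromosome 7, and went from 0.3, 0.2 and 0.3 to 2, 2.6 and 2.5 (log2 fold change 1.41, adjusted p = 0.017, limma). Also on chromosome 7, *Atf5*, *Ftl1* and *Myod1* follow one another with gaps of 641.3 kb and 916.6 kb. With a library left out, the adjusted p reached 0.132 for *Sohlh1* and 0.086 for *Tmem265* by limma, and both were tested through double KO libraries alone.

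Outside the candidates and the targeted genes, 5 genes were called lower. *Plekhg3* (chromosome 12, 76577665 to 76627262), an exchange factor for small GTPases that acts on the actin cytoskeleton, was at 29.2, 37.7 and 35.9 in control lenses and at 0, 0.2 and 0 in double KO lenses (log2 fold change −5.04, standard error 0.15, adjusted p = 0.000379, limma). *Gm15564* (chromosome 16, 35776121 to 35803658), a long noncoding RNA, was at 22.9, 30.1 and 30.3 in control lenses and was listed at 0 in all 3 double KO libraries (adjusted p = 0.000379, limma). Both were called in each fit that left out a library, and neither in one fit of all 9 libraries (adjusted p = 0.241 and 0.332, limma). In compound KO lenses *Plekhg3* was at 15.3, 0 and 0, and *Gm15564* at 29.2, 0 and 8.1, and libraries of this one genotype ranged from near the control level to 0.

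*Cc2d2a* (chromosome 5, 43819682 to 43898319), a protein of the base of the primary cilium, was at 16.6, 17.9 and 20.1 against 1.3, 2.7 and 0.5 (log2 fold change −3.03, standard error 0.33, adjusted p = 0.040, limma). Its call was lost in 5 of the 6 fits without a library, at an adjusted p of up to 0.165, and with a pseudocount of 0.1, at 0.108. *Gm28036* (chromosome 2, 155913765 to 155969012) was at 14.9, 13.7 and 9.6 against 1, 2.1 and 1.6 (log2 fold change −2.42, adjusted p = 0.026, limma). It shares sequence with *Rbm12* (99.7% over 373 aligned bases), *Cpne1* and *Nfs1*, so its reads are uncertain. *Chst2*, a sulfotransferase that modifies cell surface sugars, was at 15.3, 16.1 and 16.8 against 9, 8.2 and 9.1 (log2 fold change −0.81, adjusted p = 0.032, limma). The calls of *Gm28036* and *Chst2* were lost in each of the 6 fits without a library, with adjusted p-values of up to 0.101 and 0.151, and that of *Chst2* also with scaling to the library total.

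*Myod1* (chromosome 7, 46025870 to 46028526), the transcription factor that commits cells to skeletal muscle, was at 0.2, 0.1 and 0 in control lenses and at 9.2, 8.3 and 6.2 in double KO lenses (log2 fold change 3.01, standard error 0.17, adjusted p = 0.0039, limma). The compound KO libraries held 2.6, 6.2 and 7.8, all above the controls. Of 23 muscle genes listed, 16 could be tested and 1 was called. Of the 16, 11 reached a value of 1 in no control library and so were tested only because they were higher in double KO lenses, and no count or median over the list is drawn on. The 3 members that reached it in all 6 libraries, *Acta1*, *Actn2* and *Tnni1*, had a median log2 fold change of 0.07. *Myh3*, an embryonic myosin, was at 0.1, 0.3 and 1.3 against 21.6, 3.6 and 3.6, and *Acta1*, skeletal actin, at 1.2, 1.9 and 1.7 against 19.8, 6.6 and 7.4. Both were apart, and double KO replicate 1 was highest for both.

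Without *Actn2*, the 15 tested muscle genes added up to 10.6, 12.5 and 11.3 in control lenses and to 127.5, 44.3 and 46.2 in double KO lenses. Since 11 of them reached 1 in no control library, the filter largely set this difference, and it is not drawn on. *Myod1* and this sum were both highest in double KO replicate 1, and next came replicate 2 for *Myod1* and replicate 3 for the sum. *Actn2*, an actinin of the muscle sarcomere, held most of the muscle list's RNA in control lenses and differed from the rest, at 85.2, 119.2 and 81.5 against 43.1, 37.5 and 50.4 (log2 fold change −1.10, adjusted p = 0.13, limma). With *Actn2*, the sums of all listed entries overlapped, at 96.5, 132.3 and 93.3 against 175.3, 83.7 and 98.3. *Tnni1* overlapped between the groups. *Myog*, which acts after *Myod1*, was below the limit for testing, and *Myf5* and *Myf6* had no entry under their symbols. The part of muscle RNA from outside the lens in the value of *Myod1* was not tested.

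Markers of the other tissues around the lens were low beside lens genes and varied between libraries. Of 19 tested genes of periocular mesenchyme and fibroblasts, 0 were called by limma. The unadjusted threshold was passed upwards by 2, *Dlk1* and *Prrx1* (1.59% of all genes). Both reached a value of 1 in no control library and so were tested only through double KO libraries. A log2 fold change above 0 was seen for 18, where 52.8% of all genes had one, with a median of 0.87. Such members enter this count and median, so neither is drawn on. The sums of the list were 187.9, 159 and 205.8 in control lenses and 491.3, 126.2 and 319.6 in double KO lenses, with overlap. The median was 0.54 without double KO replicate 1 and 1.67 without double KO replicate 2. The most abundant members of the list, *Col5a1*, *Fbn1* and *Col6a3*, overlapped between the groups, with log2 fold changes of 0.01, 0.00 and −0.44.

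Neural retina genes overlapped, with sums of 156.1, 56.6 and 153.9 against 250, 66.6 and 127.1, and so did the members *Tubb3* and *Six6*. So did those of pigment epithelium, at 45.1, 30.6 and 40.4 against 39.2, 29.3 and 43.5, which include *Mitf*, *Pmel* and *Dct*. Endothelial genes (*Tek*, *Egfl7*, *Kdr*) added up to 73.3 to 89.4 against 84.2 to 91.9, macrophage genes (*Csf1r*, *Lyz2*, *Mrc1*) to 17.1 to 21.8 against 13 to 25, and surface epithelium genes (*Perp*, *Krt18*, *Krt19*) to 15.8 to 18.1 against 15.7 to 17.3. None of these lists held a called gene, by limma. Compound KO replicate 1 stood apart, at 3322.9 for mesenchyme and 1868.2 for retina, and its values above are to be read beside this.

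**Figure D4:**
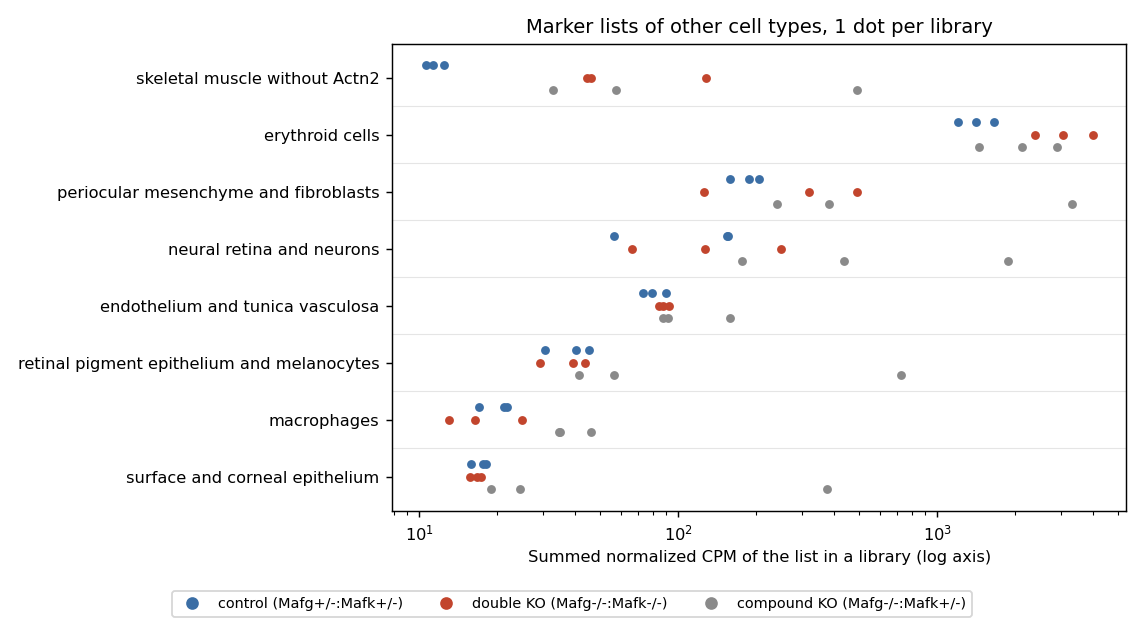
Summed normalized CPM (horizontal log axis) of marker lists of 8 cell types in each library, 1 dot per library, coloured by genotype. Sums of muscle genes without *Actn2* and of erythroid genes in the 3 double KO libraries lie above those of the 3 control libraries, while the other lists overlap, and compound KO replicate 1 lies far to the right in several. Most of the muscle genes summed reached a value of 1 in no control library, so the filter largely set their difference.

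No list of lens genes held a called gene, by limma. The entries with a symbol of highest control level were *Cryba1*, *Crybb1* and *Cryga*. *Crybb1* was at 32662.2, 41960.5 and 34512.7 against 31600.7, 29448.7 and 35799.1, with overlap. *Cryga* was at 21140, 21426.5 and 24028.6 against 17055.6, 31982.9 and 1819.9, a spread within the double KO group that its log2 fold change of −1.15 (standard error 1.06) reflects. *Cryba1* was low in a single double KO library, at 29248.4 against 57264.1 and 61430 in the other two.

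Of 7 alpha and beta crystallins and 8 gamma crystallins, 0 were called by limma, with median log2 fold changes of −0.17 and −0.31. *Cryab*, a small heat shock protein as well as a crystallin, passed the unadjusted threshold, at 2533.8, 2545.5 and 3190.7 against 1571.2, 1648.5 and 1869.4 (log2 fold change −0.70, adjusted p = 0.14, limma). *Crygd*, *Crygf* and *Crygn* were also apart below the controls, by −0.46, −0.31 and −0.30 on the log2 scale and without a call. *Cryaa* had no entry under its symbol. Crystallin genes of a family resemble one another, and reads may be shared between them.

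Of 22 genes of fiber cell membranes, filaments and organelle loss, 0 were called by limma, 6 passed the unadjusted threshold downwards and 0 upwards (1.24% and 1.59% of all genes), and 8 were apart below the controls against 1 above (8.04% and 7.78% of all genes). The median log2 fold change was −0.16, and between −0.24 and −0.08 with a library left out. *Capn3*, a calpain protease of fiber cells, was at 4171.5, 5973.7 and 3628.3 in control lenses and at 1625.6, 2483.3 and 1834 in double KO lenses (log2 fold change −1.20, standard error 0.24, adjusted p = 0.20, limma). *Nrcam*, a cell adhesion molecule of fiber membranes, was at 131.7, 114.6 and 61 against 32.8, 43.3 and 56.9 (log2 fold change −1.15, adjusted p = 0.36, limma).

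Further fiber genes with apart groups, chosen after their values were seen, were *Bfsp1* (−0.77), which encodes the beaded filament protein filensin, *Lgi2* (−0.72) and *Pla2g16* (−0.47), a phospholipase that acts in organelle loss. *Bfsp1* was at 4539.3, 5520.2 and 4519 against 2604, 2681.6 and 3266.6. *Mip*, the main water channel of fiber membranes, was at 8878.8, 10197.1 and 9443 against 7835.2, 8728.1 and 8987.1, with overlap. *Grifin*, a lens galectin-like protein, lay above the controls, at 258.4, 309.9 and 275.6 against 320.5, 340.3 and 358.5.

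Of 14 lens epithelium genes and 21 lens transcription factors, 0 were called by limma, and the medians were −0.04 and 0.01. *Cdh1* (E-cadherin), named here after its values were seen, was at 239.2, 228.2 and 238.4 against 170.2, 185.5 and 167.4, apart with a log2 fold change of −0.43. *Foxe3*, *Pax6*, *Maf*, *Sox1* and *Prox1* overlapped between the groups. *Rorb*, an orphan nuclear receptor, was at 13.1, 8 and 12.2 against 30.4, 24.8 and 26 (log2 fold change 1.24, adjusted p = 0.12, limma). *Pitx3*, named after its values were seen, was apart below the controls, with a log2 fold change of −0.17.

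A few large lists held no called gene but leaned one way. Of 31 proteasome subunits, 29 had a log2 fold change below 0, where 47.2% of all genes did, and 22 were apart below the controls against 1 above, where 8.04% and 7.78% of all genes were. The median was −0.22, or −0.15 with scaling to the library total, with which 15 were apart below and 1 above (4.07% and 11.8% of all genes). The median lay between −0.26 and −0.19 when a library was left out. *Psmb3*, of the catalytic core, was at 69.9, 78.6 and 74.3 in control lenses and at 52.2, 59 and 52.9 in double KO lenses. *Psmc1*, of the ATPase ring, was at 197.6, 204.9 and 204.8 against 157.5, 166.9 and 164.7. Both were named after their values were seen, and the smallest adjusted p of the list was 0.077. *Psma5* was the subunit that lay above the controls.

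Of 25 genes of cholesterol synthesis, 22 had a log2 fold change above 0, where 52.8% of all genes did. Apart above the controls were 13 and below them 0, where 7.78% and 8.04% of all genes were. With scaling to the library total, 15 were apart above and 0 below, where 11.8% and 4.07% of all genes were. The median was 0.20, between 0.18 and 0.24 with a library left out and 0.27 with scaling to the library total. *Insig1*, a sterol-regulated brake on the pathway, was at 51.9, 59.2 and 75.4 against 95.5, 100.5 and 132.8 (log2 fold change 0.81, adjusted p = 0.25, limma). *Hmgcs1*, which starts the pathway, was at 69.6, 67.8 and 106 against 148.8, 106.3 and 153.2 (log2 fold change 0.75, adjusted p = 0.37, limma). No gene of this list was called by limma, and the smallest adjusted p was 0.215.

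**Figure D5:**
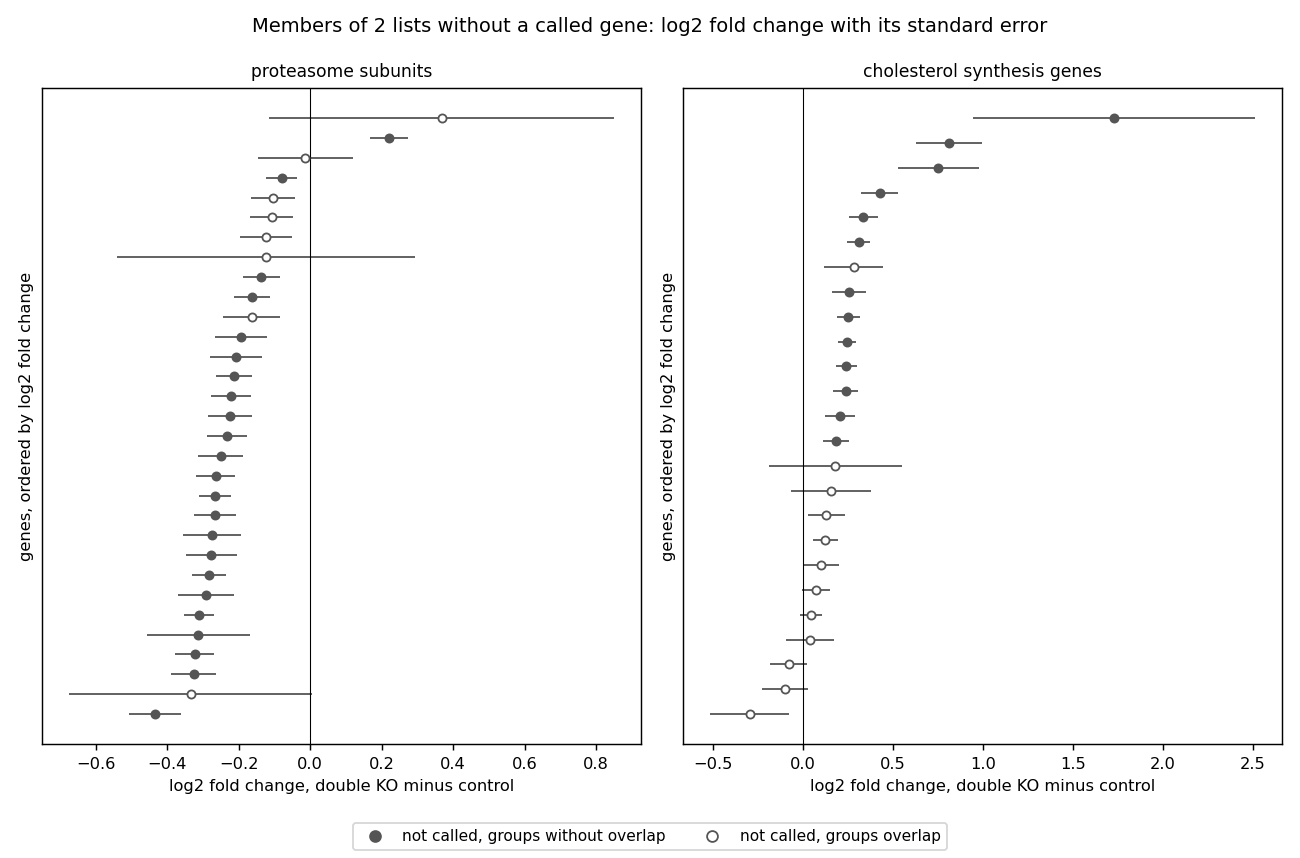
Log2 fold change (horizontal axis, log2 units, double KO minus control) of the 31 proteasome subunits and 25 cholesterol synthesis genes tested, 1 dot per gene in order of change (vertical axis), with bars for the standard error. Filled dots are genes whose groups do not overlap. Of the proteasome dots, 29 lie below 0, and of the cholesterol dots 22 lie above 0.

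Of 33 genes of cell proliferation, 31 had a log2 fold change above 0, where 52.8% of all genes did. Apart above the controls were 10 and below them 0, where 7.78% and 8.04% of all genes were. With scaling to the library total, 9 were apart above and 0 below, where 11.8% and 4.07% of all genes were. The median was 0.24, between 0.13 and 0.28 with a library left out. Without control replicate 2, 28 were above 0 and the median was 0.13. *Ncapd2*, of the condensin complex, was at 3.7, 3 and 9.8 against 50.2, 43.5 and 26.7 (log2 fold change 2.76, adjusted p = 0.13, limma), and *Pold2*, of DNA polymerase delta, at 11.8, 14.6 and 3 against 32.5, 33.9 and 31 (log2 fold change 1.85, adjusted p = 0.33, limma). *Mki67* was at 74.4, 29.5 and 68.2 against 99.1, 46.4 and 70.4, with overlap. The list's sum, lowest in control replicate 2, was 853.6, 688.2 and 847.8 in control and 1080.6, 929.9 and 884.3 in double KO lenses. *Cdk1*, a candidate of the study that is not in this list, was called lower, at 24.8, 20 and 23.5 against 10.7, 9.3 and 8.3 (log2 fold change −1.19, adjusted p = 0.038, limma). Its call was lost in each of the 6 fits without a library and with scaling to the library total.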

How the data were processed

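RNA of whole lenses was sequenced as paired-end, strand-specific libraries, 3 per genotype, each from 8 pooled lenses. Per the study's methods and the submitters' processing notes, reads were trimmed with Trimmomatic, aligned to mm39 with HISAT2 and counted per transcript with StringTie, with edgeR used for filtering and normalization. Cufflinks is also listed. The values deposited by the authors are a signal, normalized CPM with 1 factor per library and given to 1 decimal. They are not counts, so no count model was run and depth is unknown. Over all entries, the 6 libraries compared sum to 977149.4 to 1131183.5, and 29.2% to 35.5% of a library's sum lies in entries without a symbol. Whether pooled lenses of different libraries came from separate litters was not given in the sources used here, so p-values measure the spread between these libraries.

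Entries with a symbol and a value of 1 in 2 or more of the 6 libraries were fitted on log2(value + 1) with limma 3.58.1 (R 4.3.3), moderated with an intensity trend and tested two-sided. Adjustment was by Benjamini and Hochberg over all genes tested, and calls needed 0.05 and 1.5-fold. The script was tested on simulated data. An exact permutation test of 3 against 3 libraries cannot go below 0.1 and was not used. Tables were handled in Python 3.11.15 with pandas 2.3.3, sequences compared with blastn 2.17.0 and Biopython 1.88, and figures drawn with matplotlib 3.10.9. Positions are from GENCODE on GRCm39.

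The members and the gene lists were chosen with earlier results of these data known. All called genes outside the candidates are named, with library values for those of largest change that reach 10 in a group; of each list, called members and the 2 of largest change past the unadjusted threshold; of cell type lists, the 3 of highest mean; and the 3 entries of highest control level. Alternatives were other scalings, filters, pseudocount, samples in the fit, a replicate block, no trend, fold limits and each library left out. Values of a few list members are not reported here.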

Additional observations from a re-analysis of the deposited data

Results flagged for a closer look

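Entries without a gene symbol stood outside the comparison of named genes and held calls of their own. In one limma fit of all entries, 5093 such entries were tested and 45 were called (0.884%), 24 higher and 21 lower in double KO lenses. Many of the called entries reached a value of 1 in no control library, or in no double KO library. They were tested only because they were high in the other group, so these counts are not drawn on. The called entry that rose most had values of 1.3, 0.2 and 0.2 in controls against 157.6, 135 and 148.1 in double knockouts. It rose by 6.63 on the log2 scale, with an adjusted p of 0.00158 by limma. In compound KO lenses it was at 126, 135.4 and 143.2, so all 6 knockout libraries lay far above the controls. Another called entry was at 257.9, 292.8 and 254.3 against 2442.4, 2936.2 and 3232.9, with 735, 2460 and 2654.1 in compound KO lenses. Among those lower, one was at 166.8, 185.4 and 178.2 against 33.2, 19.9 and 20.6. Which transcripts these entries are was not analysed here.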

How the results depend on the processing

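With a library left out, between 22 and 47 genes were called (22 without control replicate 3, 27 without double KO replicate 1 and 33 without control replicate 1), 15 to 38 of them higher and 6 to 12 lower, and 17 of those 22 were among the 51. The log2 fold change of *Mafk* lay between −2.55 and −2.21, and its call was lost without control replicate 1, 2 or 3 or double KO replicate 3, at adjusted p-values of 0.061 to 0.086 (limma). One fit of all 9 libraries called 21 genes, 13 of them higher, of which 18 were among the 51; *Plekhg3* and *Gm15564* were not called in it (0.241 and 0.332). Whether a replicate number pairs libraries of the groups was not given in the sources used here. The correlations of the deviations from the group means were 0.076, 0.069 and 0.057. These are small values above 0 over all genes, which cannot decide whether libraries share a litter or batch. With the replicate block 10 genes were called, 6 higher and 4 lower, all among the 51, and *Mafk* had a log2 fold change of −2.39 with an adjusted p of 0.183 (limma). *Mafk* also lost its call with a pseudocount of 0.1, at −4.25 with an adjusted p of 0.15 (limma). The cause was not tested. Scaling to the library total called 53 genes (48 shared), upper quartile scaling 54 (51 shared), no filter 49 (49 shared), a value of 1 in all 6 libraries 44 (41 shared), a pseudocount of 0.1 48 (47 shared) and no trend 41 (40 shared). Called genes kept their direction, and *Slc48a1*, *Radil*, *Ptafr*, *Myod1* and *Mafg* their call, in every fit that included them. Uncalled marker genes whose log2 fold change turned sign with a library left out were *Six6* from −0.072 to 0.61, *Tubb3* from −0.24 to 1.01, *Lyz2* from −0.050 to 0.43, *Kdr* from −0.042 to 0.29, *Tnni1* from −0.18 to 0.31, *Krt18* from −0.12 to 0.26, *Egfl7* from −0.025 to 0.11, *Pmel* from −1.01 to 1.07, *Col5a1* from −0.17 to 0.22, *Fbn1* from −0.23 to 0.26, *Mrc1* from −0.30 to 0.13, *Cryba1* from −0.52 to 0.013, *Col6a3* from −1.12 to 0.11 and *Cryga* from −1.99 to 0.08. edgeR and DESeq2 were not run because the values are not counts. Unknown depth limits what can be said of genes with values near 0.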

Other observations

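Lists not described above held few calls or none. Of 23 cyclins, Cdks and inhibitors outside the candidates, 33 actin and apical constriction genes, 19 spectrin genes, 17 Eph receptors and ephrins, 21 lens capsule genes, 24 RNA-binding proteins, 29 MAP kinase pathway genes, 28 autophagy genes and 17 genes of complex II and the TCA cycle, 0 were called by limma. Past the unadjusted threshold were 1 higher and 1 lower, 2 and 2, 2 and 2, 0 and 0, 1 and 2, 3 and 1, 2 and 1, 0 and 3, and 1 and 1 of these lists in that order. Over all genes, 1.59% passed it upwards and 1.24% downwards. Among those counted, *Cdkn2b* and *Flnc* reached a value of 1 in no control library and *Cdk18* in no double KO library. These were tested only through the other group. The called members of the remaining lists were *Mknk2* (1 of 20 genes of mRNA cap binding), *Klf9* (1 of 21 circadian clock genes), *Pcdh20* (1 of 26 genes of cadherins, catenins and tight junctions) and *Atf5* (1 of 21 stress response genes). All were called higher, as were 0.283% of all genes. Autophagy genes were apart below the controls for 8 members and above for 0 (8.04% and 7.78% of all genes), with a median log2 fold change of −0.03. With scaling to the library total, 4 were apart below and 1 above (4.07% and 11.8% of all genes), and the median was 0.03.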
